A study of Mus musculus with 2 samples.

Results

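The insulin-like growth factor (IGF) system was followed through 9 genes of the mouse embryo, namely the ligand Igf1, the receptors Igf1r and Insr, and the binding proteins Igfbp2, Igfbp3, Igfbp4, Igfbp5, Igfbp6 and Igfbp7. They were taken by symbol from a list of the family, and are 9 of 21937 gene features in the count tables. Together they held 78082 of 68972620 UMIs (unique molecular identifiers, 1 per captured transcript) in the cells used. The data are single-cell RNA sequencing of embryos at E11.5 that carried a piggyBac transgene in which EGFP under the broadly active CAG promoter is linked to a DNA barcode, so there was no group without it. F0_8 and F0_9 were founder embryos, F1_1 was an embryo of the F1 generation, and F1_mix was an artificial mosaic for which cells of 2 F1 embryos had been mixed. Each suspension was tagged with its own oligo and the 4 were pooled into 1 library, so the founders and the F1 generation had 2 suspensions each, and a founder can itself be a mosaic of cells that differ in their insertions. The question put to the 9 genes was where in the embryo they were expressed and whether founder and F1 suspensions differed in them.

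IGF1 binds the receptor tyrosine kinase encoded by Igf1r and, less tightly, the insulin receptor encoded by Insr, and both receptors signal through PI3 kinase and AKT to growth and survival of cells. The IGF binding proteins are secreted and hold IGFs in the extracellular space, where they can limit or prolong access to the receptor. IGFBP7 binds IGFs weakly and is known as a protein of the vascular basement membrane. In the mid-gestation embryo, Igf1 is a product of mesenchyme, while the receptor is found in most tissues.

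RefSeq sequences of gene starts (GRCm38.p6) were found for 8 of the 9 genes, with a pair of starts for Igfbp2. Those of a broadly and a narrowly expressed gene (Igf1r and Igf1), of the neighbours Igfbp2 and Igfbp5 and of Igfbp4 are shown because the results turn on these genes. Each line gives the 100 bases before the annotated start on the strand of the gene, 5′ to 3′, with the dinucleotide CG in capitals.
Igf1: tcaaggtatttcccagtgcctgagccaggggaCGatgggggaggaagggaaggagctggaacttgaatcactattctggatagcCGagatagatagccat
Igf1r: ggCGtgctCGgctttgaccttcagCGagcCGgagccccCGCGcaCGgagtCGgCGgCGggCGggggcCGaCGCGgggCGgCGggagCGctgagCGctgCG
Igfbp2: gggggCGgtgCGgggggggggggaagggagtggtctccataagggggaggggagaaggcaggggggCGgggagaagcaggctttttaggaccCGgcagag
Igfbp5: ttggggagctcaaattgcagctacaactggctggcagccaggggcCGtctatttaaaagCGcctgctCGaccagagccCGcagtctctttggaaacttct
Igfbp4: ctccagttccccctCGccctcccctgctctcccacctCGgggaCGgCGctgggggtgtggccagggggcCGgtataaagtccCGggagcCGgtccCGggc
These lie at chr10:87861011-87861110 (plus strand), chr7:67952157-67952256 (plus), chr1:72824380-72824479 (plus, the first of the starts of Igfbp2), chr1:72874866-72874965 (minus) and chr11:99041144-99041243 (plus). Over 300 bases, from 250 before to 50 after the start, Igf1r held 48 CG dinucleotides, more than 98.8% of the 32851 starts in the table, whereas Igf1 held 6 and the median start held 7. Igfbp3 held 37, Igfbp7 33, Igfbp4 27, Igfbp2 18 and 14 at its starts, Igfbp5 10 and Igfbp6 8. The letters TATAAA, the only other motif searched (on both strands), occurred in the 300 bases of Igfbp4 and Igfbp6 and in 13.6% of all starts, and in Igfbp4 they began 28 bases before the start. Igfbp2 (chr1:72824480-72852474) and Igfbp5 (chr1:72858065-72874865) are neighbours on chromosome 1 that end 5590 bases apart, facing each other. The windows of Igf1 and Igfbp4, and that of Igfbp3 (not shown), lie inside the annotated spans of these genes, since the table gives 1 start for each. Igfbp3 (chr11:7206086-7215498) lies next to Igfbp1 on chromosome 11. Igf1r (chr7:67952257-68233668) spans 281 kb, Insr (chr8:3150922-3279649) 129 kb and Igf1 (chr10:87858265-87937047) 78.8 kb, while the other 6 genes span 5.33 kb to 58.8 kb.

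The cells used were the 5678 of 6006 barcodes that had a cell type in the cell table of the authors (1310 to 1599 per suspension), and no barcode was shared between suspensions. A suspension held 16052917 to 19160116 gene UMIs, with a median of 10880 to 13267 per cell. Of the 16 annotated types, 12 were deep, and 4 (Endodermal Progenitor, Foregut, Hepatocyte and Midgut) were shallow, with medians of 721.5 to 1674 gene UMIs per cell and median mitochondrial shares of 23.0% to 55.9%. When sets of 4 markers per name were summed, 7 of the 16 types held the highest level of their own set. Cells named Neuroectoderm/Glia had 0.630 UMIs of glial and neural crest markers per 10000 gene UMIs outside mitochondrial genes and 76.6 of neuronal markers, the highest of all types, and cells named Hepatocyte had 0.0610 of hepatocyte markers and those named Midgut none. The names of the authors are kept here as labels only. Levels are UMIs of a gene per 10000 gene UMIs, summed over the cells of a type, and 4 values in a row stand for F0_8, F0_9, F1_1 and F1_mix in this order. The types were clustered on these same genes, so levels between types are given as a description with the spread over suspensions and no test.

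Igf1 was expressed in the mesodermal types and was close to absent from the neural, epithelial and red cell types. It reached 1.18, 1.498, 1.38 and 1.56 in Gut Mesenchyme/Amniotic Mesoderm, 1.28, 1.42, 0.858 and 2.02 in Chondrocyte and 0.986, 1.02, 1.32 and 1.54 in Mesodermal Progenitor. Hematoendothelial Progenitor/Endothelium stood at 0.523, 0.609, 0.622 and 1.96, where F1_mix alone lay far above the other three, and Myoblast/Cardiomyocyte at 0.368, 0.698, 0.995 and 1.19. Among these 5 types each overlapped its neighbour in the order of levels, and the first step at which the ranges lay apart was the one down to Ependymal Cell, with a mean of 0.215 ± 0.126 (SD, n = 4). The other 6 deep types had means of 0.00767 to 0.0378, and CNS Neuron gave 5 Igf1 UMIs in all 4 suspensions. Cells were thinned to 5000 gene UMIs to compare shares of cells across depths, and exact intervals here cover counting error only. At that depth 1 or more Igf1 UMIs were found in 30.6% of 294 cells (95% interval 25.4 to 36.2) of Chondrocyte and 26.5% of 668 cells (95% interval 23.2 to 30.02) of Gut Mesenchyme/Amniotic Mesoderm. In Erythrocyte, a type that should lack the gene, 0 of 60 thinned cells held an Igf1 UMI, which allows up to 5% of cells with a UMI at that depth and does not limit the share that express it. Unthinned, 2 of these 60 cells held one, at a median depth of 24289 against 11654 in Chondrocyte. The signal was uneven within the mesodermal types, since the 10% of Gut Mesenchyme/Amniotic Mesoderm cells with the most Igf1 held 67.7% of its Igf1 UMIs and the highest cell held 15 of 5000.

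Igf1r, the receptor with the higher affinity for IGF1, was detected in every annotated type. Among the deep types it was highest in Gut Mesenchyme/Amniotic Mesoderm at 4.296, 4.198, 3.496 and 3.85, followed by Mesodermal Progenitor at 3.25, 3.59, 3.51 and 3.78 and Epithelial Cell at 4.399, 3.18, 2.46 and 3.34. Its level changed little from there through the neural types, and the 8 highest deep types, down to Neuronal Progenitor at 2.72, 2.77, 2.79 and 2.62, overlapped step by step. Chondrocyte (2.298 ± 0.165, SD, n = 4) lay apart below Neuronal Progenitor but overlapped Epithelial Cell, Neuroectoderm/Glia and Myoblast/Cardiomyocyte, Erythroblast and Hematoendothelial Progenitor/Endothelium lay apart below Chondrocyte (1.21 ± 0.286 and 1.14 ± 0.2601), and Erythrocyte was lowest at 0.2104, 0.273, 0.424 and 0.545. In cells thinned to 5000 gene UMIs, Igf1r was found in 80.2% of 668 cells (95% interval 77.01 to 83.2) of Gut Mesenchyme/Amniotic Mesoderm, in 71.6% of Neuronal Progenitor and in 13.3% of Erythrocyte. The highest 10% of Gut Mesenchyme/Amniotic Mesoderm cells held 29.2% of the Igf1r UMIs, against 67.7% for Igf1. This share rises as counts fall (1332 thinned UMIs of Igf1r and 421 of Igf1), and evenness at equal counts was not compared.

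Insr, the insulin receptor gene, followed another order among the deep types, with CNS Neuron at the top. CNS Neuron had 0.775, 0.708, 0.733 and 0.647, the type named Neuroectoderm/Glia 0.677, 0.556, 0.586 and 0.671, and Myoblast/Cardiomyocyte, the lowest deep type outside the red cells, 0.301, 0.278, 0.314 and 0.336. The values of CNS Neuron and Myoblast/Cardiomyocyte did not overlap, although every single step between them did, and Erythrocyte stood apart at the bottom at 0.0842, 0.117, 0.0326 and 0.0808. Insr was found in 24.5% of 515 cells (95% interval 20.8 to 28.4) of CNS Neuron after thinning and in 8.33% of Erythrocyte.

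**Figure D1:**
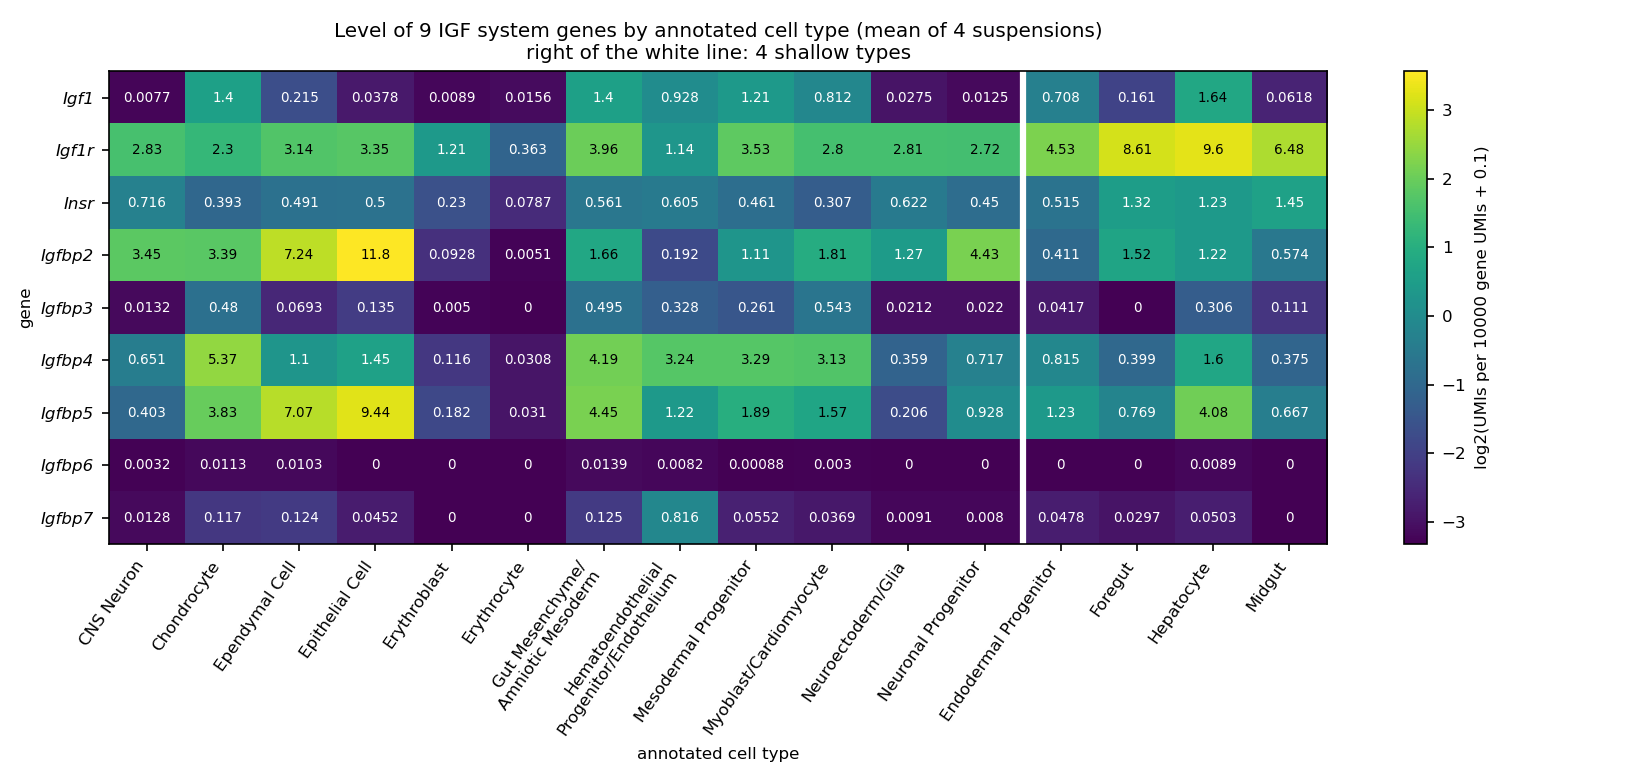
Mean level over the 4 suspensions, printed in UMIs per 10000 gene UMIs and coloured on a log2 scale, for the 9 genes (rows) in the 16 annotated types (columns), with the 4 shallow types right of the white line. Igf1, Igfbp3 and Igfbp4 were bright in the mesodermal types, Igfbp2 and Igfbp5 were brightest in Epithelial Cell (11.8 and 9.44), and Igf1r was brightest in the shallow types.

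Igfbp2 and Igfbp5, the neighbours on chromosome 1, were both highest in Epithelial Cell and next in Ependymal Cell. Igfbp2 stood at 8.84, 10.2, 13.4 and 14.6 in Epithelial Cell and at 6.62, 5.23, 6.46 and 10.6 in Ependymal Cell, where F1_mix was high and made the ranges overlap. Neuronal Progenitor lay apart below at 4.44, 4.62, 4.795 and 3.84, with CNS Neuron at 3.33, 3.15, 3.43 and 3.88 and Chondrocyte at 2.98, 3.95, 2.94 and 3.704. Igfbp5 was at 10.1, 8.604, 11.9 and 7.15 in Epithelial Cell and 5.31, 10.3, 6.98 and 5.72 in Ependymal Cell, and these ranges overlapped as well.

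The rest of the order separated the pair. Igfbp5 came next in Gut Mesenchyme/Amniotic Mesoderm (3.98, 4.61, 4.28 and 4.94) and Chondrocyte (4.02, 3.78, 3.16 and 4.36), both apart from Mesodermal Progenitor at 2.08, 1.89, 1.84 and 1.74. In CNS Neuron Igfbp5 had a mean of 0.403 ± 0.223 (SD, n = 4) while Igfbp2 had 3.45 ± 0.313, so that the order of these types was reversed between the genes, with Gut Mesenchyme/Amniotic Mesoderm above CNS Neuron for Igfbp5 and below it for Igfbp2 (1.66 ± 0.188) in every suspension. In thinned cells, Igfbp2 was found in 88.7% of 150 cells (95% interval 82.5 to 93.3) of Epithelial Cell and Igfbp5 in 78.7% of 150 cells (95% interval 71.2 to 84.9). Thinned Erythrocyte cells gave 0 of 60 with an Igfbp2 UMI (1 of 60 unthinned) and 1.67% for Igfbp5.

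Igfbp4, which encodes a binding protein that proteases of the pappalysin family cleave, marked the mesodermal types. It was highest in Chondrocyte at 5.11, 4.62, 5.34 and 6.41 and next in Gut Mesenchyme/Amniotic Mesoderm at 3.99, 3.79, 4.79 and 4.199. The latter lay apart from Mesodermal Progenitor (3.16, 3.17, 3.7 and 3.12), and all 5 mesodermal and endothelial types lay apart from Epithelial Cell at 0.964, 1.19, 1.72 and 1.91. After thinning, 85.4% of 294 cells (95% interval 80.8 to 89.2) of Chondrocyte and 81.6% of 668 cells (95% interval 78.4 to 84.5) of Gut Mesenchyme/Amniotic Mesoderm held an Igfbp4 UMI, against 1.67% of Erythrocyte.

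Igfbp3, whose product carries much of the circulating IGF in the adult, was found in the same group of types in few cells. Its means were 0.543 ± 0.269 in Myoblast/Cardiomyocyte, 0.495 ± 0.162 in Gut Mesenchyme/Amniotic Mesoderm and 0.4797 ± 0.1502 in Chondrocyte (SD, n = 4), and no step in its order over the 12 deep types separated neighbours. In Myoblast/Cardiomyocyte the suspensions stood at 0.904, 0.5897, 0.367 and 0.311, with both founders above both F1 suspensions. Thinned cells held Igfbp3 in 12.2% of 640 cells (95% interval 9.75 to 14.98) of this type, against 0 of 60 in Erythrocyte. The highest 10% of the 640 cells held 90.5% of its UMIs, a share that low counts raise. Droplets of 100 to 300 gene UMIs in the raw matrix had 0.351 for Igfbp3 and those of 1 to 100 had 0.177. The part of free RNA in the cells was not tested.

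Igfbp6 was hardly detected. It gave 26 UMIs in all cells, 12 of them in Gut Mesenchyme/Amniotic Mesoderm, where its mean level was 0.0139, and it was not detectable at this depth in 8 of the 16 types. Igfbp7 was highest in Hematoendothelial Progenitor/Endothelium at 0.785, 1.603, 0.484 and 0.391, apart from the next type, Gut Mesenchyme/Amniotic Mesoderm, at 0.0791, 0.142, 0.143 and 0.137. The high value of F0_9 rested on 1 cell, without which it was 0.704. No Igfbp7 UMI occurred in Erythroblast or Erythrocyte.

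**Figure D2:**
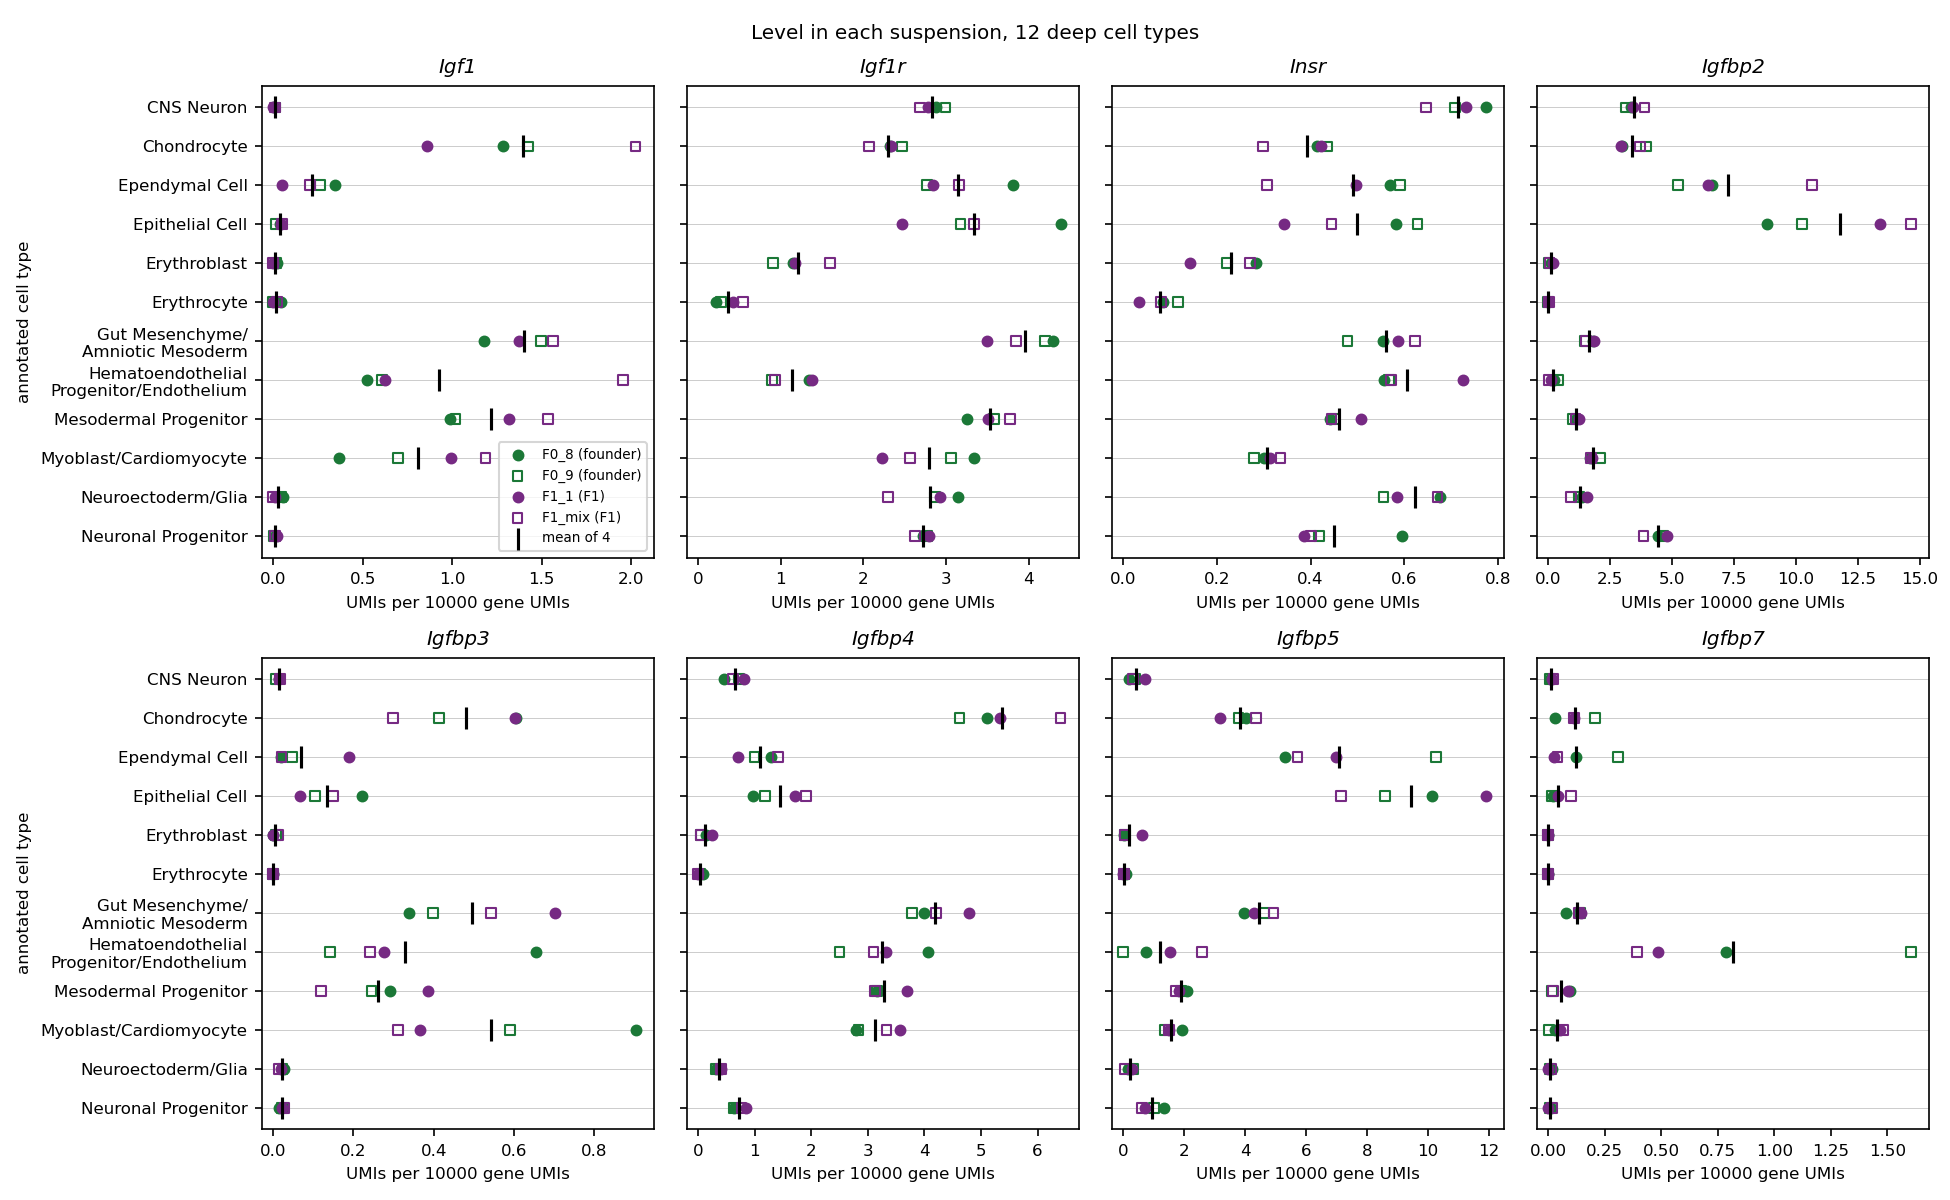
Level of 8 of the genes (1 panel each, Igfbp6 left out for its 26 UMIs) in UMIs per 10000 gene UMIs in each of the 12 deep types, with founder suspensions in green, F1 suspensions in purple and the mean of the 4 as a black bar. Suspensions lie close together for Igf1r in Neuronal Progenitor (2.62 to 2.79) and far apart for Igf1 in Chondrocyte (0.858 to 2.02) and for Igfbp5 in Ependymal Cell (5.31 to 10.3).

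The shallow types gave the highest receptor levels of all. Igf1r stood at 10.8, 9.79, 9.58 and 8.22 in the type named Hepatocyte, 7.36, 8.63, 8.63 and 9.81 in Foregut, 5.77, 5.97, 7.63 and 6.54 in Midgut and 4.67, 5.29, 3.64 and 4.54 in Endodermal Progenitor, all with means above every deep type. With mitochondrial genes left out of the denominator the shallow means were 8.701 to 11.8 and the deep means at most 4.07. Insr was above every deep type in 3 of the 4, with 1.74, 1.55, 1.33 and 1.17 in Midgut. The 53828 droplets of 100 to 300 gene UMIs in the raw matrix had 6.499 for Igf1r and 1.27 for Insr, both within the range of the shallow means. The 1435345 droplets with fewer UMIs (1 to 100) had 2.48 and 0.415, both below every shallow mean, so the receptor level of the droplets depended on their class. Whether either class held damaged cells was not tested. The share of free RNA in the shallow cells was not tested.

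For the ligand and the binding proteins the shallow types did not exceed the deep ones, apart from Igf1 in the type named Hepatocyte at 1.39, 1.25, 1.67 and 2.26, against 0.896 in the droplets of 100 to 300 gene UMIs and 0.478 in those of 1 to 100. Igfbp5 in the same type was at 3.52, 4.92, 4.402 and 3.49, against 3.22 and 1.696 in these classes and 0.769 in Foregut. Igfbp2 had shallow means of 0.411 to 1.52, against 1.61 and 2.32 in the droplets.

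Hematoendothelial Progenitor/Endothelium held a pair of cell populations that differed in binding proteins. The cells were split after the values had been seen, by 4 endothelial markers (Pecam1, Cdh5, Kdr, Tek) and 4 macrophage markers (Csf1r, C1qa, Fcer1g, Tyrobp), each cell going to the set with more UMIs if that set had 3 or more. Of its 76 cells, 26 had endothelial markers (7, 7, 6 and 6 by suspension), 49 had macrophage markers (11, 17, 9 and 12) and 1 had neither. Igfbp3, Igfbp5 and Igfbp7 were found in the endothelial cells, where they gave 43, 152 and 85 UMIs, against 0, 1 and 0 in the macrophage-marker cells. Igfbp7 was at 1.89 (95% interval 1.51 to 2.34) in the endothelial cells, with its UMIs in 10 of the 26 cells and 30 of them in 1 cell. Igfbp2 gave 21 UMIs in the endothelial cells, at 0.468 (95% interval 0.2896 to 0.715), and 2 in the macrophage-marker cells, at 0.0208 (95% interval 0.00252 to 0.0751). The single cell with neither set held 45 Igfbp7 UMIs among 9454 gene UMIs and came from F0_9, so that 1 cell held 45 of the 79 Igfbp7 UMIs of this type in F0_9. Without it, an alternative chosen after seeing the data, F0_9 stood at 0.704 in place of 1.603 and below F0_8.

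Igfbp4 was present in both populations, at 5.89, 7.11, 7.09 and 4.56 in the endothelial cells and 2.52, 1.06, 1.41 and 2.42 in the macrophage-marker cells, and the values did not overlap. Igf1 did not part them, with 0.891 (95% interval 0.637 to 1.21) and 0.925 (95% interval 0.743 to 1.14), and F1_mix was the highest suspension in both (1.99 and 1.94). Igf1r was at 1.74 (95% interval 1.37 to 2.17) and 0.811 (95% interval 0.641 to 1.01). The Igfbp5 UMIs of the endothelial cells came from 4 of the 26 cells, with 71, 44, 22 and 15 each, and none of them from F0_9.

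The type named Myoblast/Cardiomyocyte was divided in the same way, again after its values had been seen. Only 88 of its 644 cells (23, 16, 18 and 31) held a UMI of Myog or Myod1, the regulators of skeletal muscle differentiation, and these cells held 334 of the 338 Tnnt2 UMIs, while Myh6, a heart muscle gene, gave 2 UMIs in the whole type. Igfbp3 was at 1.72, 2.34, 1.31 and 1.06 in the Myog or Myod1 cells and at 0.572, 0.212, 0.249 and 0.164 in the other 556. Igfbp2 (2.47, 3.32, 3.02 and 3.43 against 1.35, 1.82, 1.6 and 1.39) and Igfbp5 (3.65, 3.16, 2.101 and 3.28 against 1.23, 0.981, 1.43 and 1.14) were likewise higher in the Myog or Myod1 cells in every suspension.

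Igf1, Igfbp4 and Igfbp7 went the other way. Igf1 was at 0.135, 0.318, 0.547 and 0.264 in the Myog or Myod1 cells and 0.463, 0.7804, 1.05 and 1.37 in the rest, and Igfbp4 at 1.62, 1.96, 2.69 and 2.01 and 3.27, 3.02, 3.67 and 3.59. Igfbp7 gave 2 UMIs in the Myog or Myod1 cells, at 0.00966 (95% interval 0.00117 to 0.0349), and 53 in the rest, at 0.0513 (95% interval 0.0384 to 0.0671). Igf1r was higher in the Myog or Myod1 cells, 4.64, 4.88, 2.82 and 3.64 against 2.81, 2.67, 2.15 and 2.35, and Insr was at 0.309 (95% interval 0.238 to 0.395) and 0.315 (95% interval 0.281 to 0.351) in the pooled cells.

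**Figure D3:**
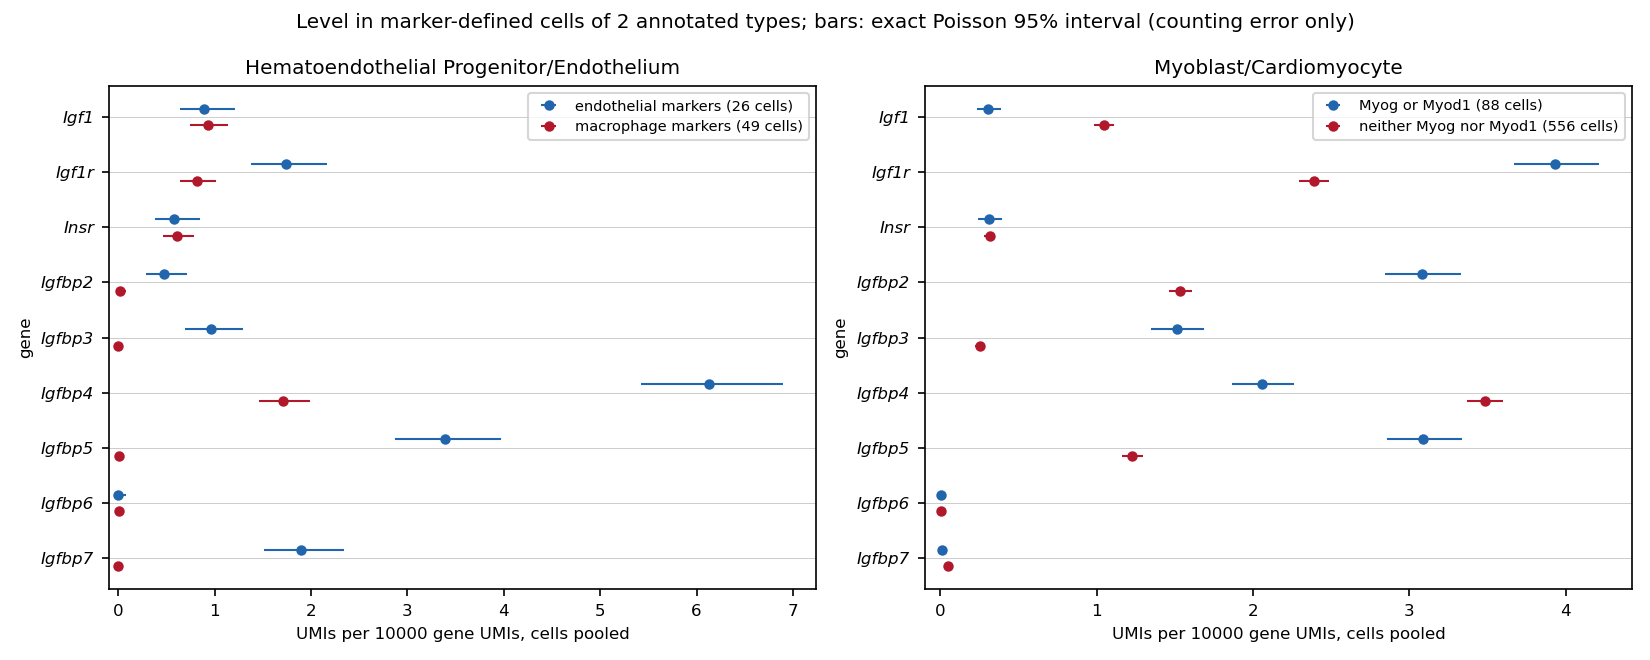
Level of the 9 genes in UMIs per 10000 gene UMIs, pooled over suspensions, in marker-defined cells of Hematoendothelial Progenitor/Endothelium (left) and Myoblast/Cardiomyocyte (right), with exact Poisson 95% intervals that cover counting error only. On the left Igfbp3, Igfbp5 and Igfbp7 are at 0, 0.0104 and 0 in the macrophage-marker cells, and on the right Igf1, Igfbp4 and Igfbp7 are lower, and Igf1r, Igfbp2, Igfbp3 and Igfbp5 higher, in the Myog or Myod1 cells.

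Founder and F1 suspensions were compared on summed counts in the 13 types for which each suspension held 20 or more cells, by the quasi-likelihood test of edgeR with Benjamini-Hochberg adjustment within a type. The p-values measure the spread between 2 suspensions per group, and F1_mix combines 2 embryos. Passing the filter on low counts, 8 of the 9 genes were tested in 71 pairs of gene and type (Igfbp6 in none), and 1 pair was called at an adjusted p under 0.05, where the rate over all genes was 0.763% of 99228 pairs. The filter asked for enough counts in any 2 suspensions, so a pair could enter the test through 1 group alone. Igf1 in Ependymal Cell, Insr in Foregut and Igfbp7 in Myoblast/Cardiomyocyte did so. At an unadjusted p under 0.05 there were 17 pairs (23.9%), 5 higher and 12 lower in founders, against 10.2% of all pairs. Founder values lay wholly above F1 values in 15 of the 71 pairs (21.1%) and wholly below in 18 (25.4%), against 20.8% and 19.8% of all pairs. The median log2 fold change, founder minus F1, was 0.03 over the 71 pairs and -0.000523 over all.

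The called pair was Igf1 in Mesodermal Progenitor, which was lower in founders. The suspensions stood at 0.986, 1.02, 1.32 and 1.54, so the groups did not overlap, and the log2 fold change was -0.52 (SE 0.11, edgeR adjusted p = 0.0354). In this type 38 of 10927 genes were called lower in founders, or 0.348%. The call did not hold with DESeq2 (adjusted p = 0.519) or without F0_8 (0.304), F0_9 (0.107) or F1_mix (0.122), while the log2 fold change stayed between -0.62 and -0.42 when any 1 suspension was left out. Igf1 was also lower in both founders in Myoblast/Cardiomyocyte (0.368, 0.698, 0.995 and 1.19), with a log2 fold change of -1.02 (SE 0.24, edgeR adjusted p = 0.305) that did not pass, and it was called with DESeq2 (adjusted p = 0.0356), without F0_9 (0.000476) and with no filter beyond 1 count (0.0179). The share of Myog or Myod1 cells in that type was 23.2%, 13.9%, 8.57% and 14.1%, and their part in the difference was not tested. Igf1 was at 0.135, 0.318, 0.547 and 0.264 in the Myog or Myod1 cells, where the groups overlapped, and at 0.463, 0.7804, 1.05 and 1.37 in the others, where they did not. Its log2 fold change was negative in 5 of 6 types, and in 4 of 6 without F0_8 or without F1_mix. The difference largest in size was positive, in Ependymal Cell (0.346, 0.2601, 0.0473 and 0.205), at 1.18 (SE 0.61, edgeR adjusted p = 0.792). That pair held 40 UMIs and entered the test only through the founders.

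Of the binding proteins, Igfbp2 came nearest to the threshold in Epithelial Cell, its type of highest level. Both founders were below both F1 suspensions (8.84, 10.2, 13.4 and 14.6) and the log2 fold change was -0.56 (SE 0.09, edgeR adjusted p = 0.0641). It was called with DESeq2 (adjusted p = 0.0302), with adjustment over all pairs (0.0172), with no filter beyond 1 count (1.92e-07) and in each of the 4 fits without 1 suspension (0.0122 at most). In the neural types next in the order of Igfbp2 levels its log2 fold changes were 0.03 in Neuronal Progenitor and -0.20 in CNS Neuron, neither of which passed, although founders lay wholly below F1 in the latter. Ependymal Cell had the same size of difference as Epithelial Cell with overlapping groups, -0.56 (SE 0.22, edgeR adjusted p = 0.675), and was called without F1_1 (-0.88, adjusted p = 0.000283) and with no filter beyond 1 count (0.00752). In the shallow type named Hepatocyte Igfbp2 was at 0.546, 0.819, 1.03 and 2.496, with a log2 fold change of -1.34 (SE 0.38, edgeR adjusted p = 0.236), and it was called there without F0_9 (adjusted p = 0.0164), without F1_1 (0.000231) and with no filter beyond 1 count (0.0120).

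Igfbp3 was tested in 5 types, with a positive log2 fold change in 4 of them, a count that became 2 of 5 without F0_8 and 2 of 6 without F1_mix. In Myoblast/Cardiomyocyte the log2 fold change was 1.12 (SE 0.21, edgeR adjusted p = 0.229). In Gut Mesenchyme/Amniotic Mesoderm, where the suspensions were at 0.338, 0.399, 0.702 and 0.543 and the groups did not overlap, it was -0.77 (SE 0.18, edgeR adjusted p = 0.0728). Neither passed, although the former was called with DESeq2 (adjusted p = 0.0233), without F0_9 (0.000626) and with no filter beyond 1 count (0.00846), and the latter without F1_mix (0.00898) and with no filter beyond 1 count (0.000422). In Mesodermal Progenitor the difference of Igfbp3 was 0.10 (SE 0.37, edgeR adjusted p = 0.962), and without F1_1 it was 1.18 and was called (adjusted p = 0.0150). Within Myoblast/Cardiomyocyte both founders were above both F1 suspensions among the Myog or Myod1 cells (1.72, 2.34, 1.31 and 1.06), whereas among the other cells F0_9 was below F1_1 (0.572, 0.212, 0.249 and 0.164). The part that the share of Myog or Myod1 cells had in the difference of Igfbp3 was not tested. Igfbp5 in Neuronal Progenitor was at 1.33, 1.02, 0.7296 and 0.626, with a log2 fold change of 0.76 (SE 0.15, edgeR adjusted p = 0.0707), and the call was made without F0_9 (adjusted p = 0.0175) and with no filter beyond 1 count (0.00181). In its type of highest level, Epithelial Cell, the difference of Igfbp5 was -0.05 (SE 0.18, edgeR adjusted p = 0.992), and without F1_mix it was -0.36 and was called (adjusted p = 0.0409). In CNS Neuron Igfbp5 was at 0.199, 0.387, 0.718 and 0.309, with overlapping groups and a difference of -0.75 (SE 0.38, edgeR adjusted p = 0.607), which without F1_mix became -1.28 and was called (adjusted p = 0.0182), as it was with no filter beyond 1 count (0.0418). Igfbp7 was tested in 4 types and its highest difference in size was in Myoblast/Cardiomyocyte (0.0279, 0.00472, 0.0511 and 0.06396), at -1.88 (SE 0.63, edgeR adjusted p = 0.453). This pair held 55 UMIs, with 5 and 1 in the founders, and entered the test only through the F1 suspensions. The difference is therefore a description and no test. Of the 55 UMIs, 2 lay in the Myog or Myod1 cells, whose part in the difference was not tested.

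Igfbp4 had a negative log2 fold change in 9 of its 10 types, with founders wholly below F1 in 6 of the 10, where 19.8% of all pairs were wholly below, but none of the 10 passed. In Epithelial Cell the suspensions were at 0.964, 1.19, 1.72 and 1.91 with a difference of -0.75 (SE 0.19, edgeR adjusted p = 0.275), and in Gut Mesenchyme/Amniotic Mesoderm the difference was -0.22 (SE 0.08, edgeR adjusted p = 0.289). Epithelial Cell was called with no filter beyond 1 count (adjusted p = 0.0250), and Gut Mesenchyme/Amniotic Mesoderm without F1_mix (-0.33, adjusted p = 0.0318). The sign count was 9 of 10 with size factors of the DESeq2 type as well and 8 of 10 without F1_mix, and the types share the same 4 suspensions, so they are not independent. Igf1r leaned the other way, with a positive sign in 9 of 13 types, and its differences were small, from -0.13 to 0.41 on the log2 scale. In Myoblast/Cardiomyocyte, where it was 3.34, 3.06, 2.23 and 2.56, the difference was 0.41 (SE 0.09, edgeR adjusted p = 0.29), and it was called without F0_9 (adjusted p = 0.0239). Igf1r was at 4.64, 4.88, 2.82 and 3.64 in the Myog or Myod1 cells of this type, whose share differed between suspensions as given for Igf1, and at 2.81, 2.67, 2.15 and 2.35 in the others, and the part of this share in the difference was not tested. Insr was positive in 8 of 12 types and passed in none, with the highest log2 fold change in Foregut at 0.94 (SE 0.52, edgeR adjusted p = 0.511). There Insr was at 1.54, 1.89, 0.913 and 0.939, from 13, 9, 11 and 9 UMIs. It entered the test in Foregut only through the founders, so this difference is a description and no test.

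**Figure D4:**
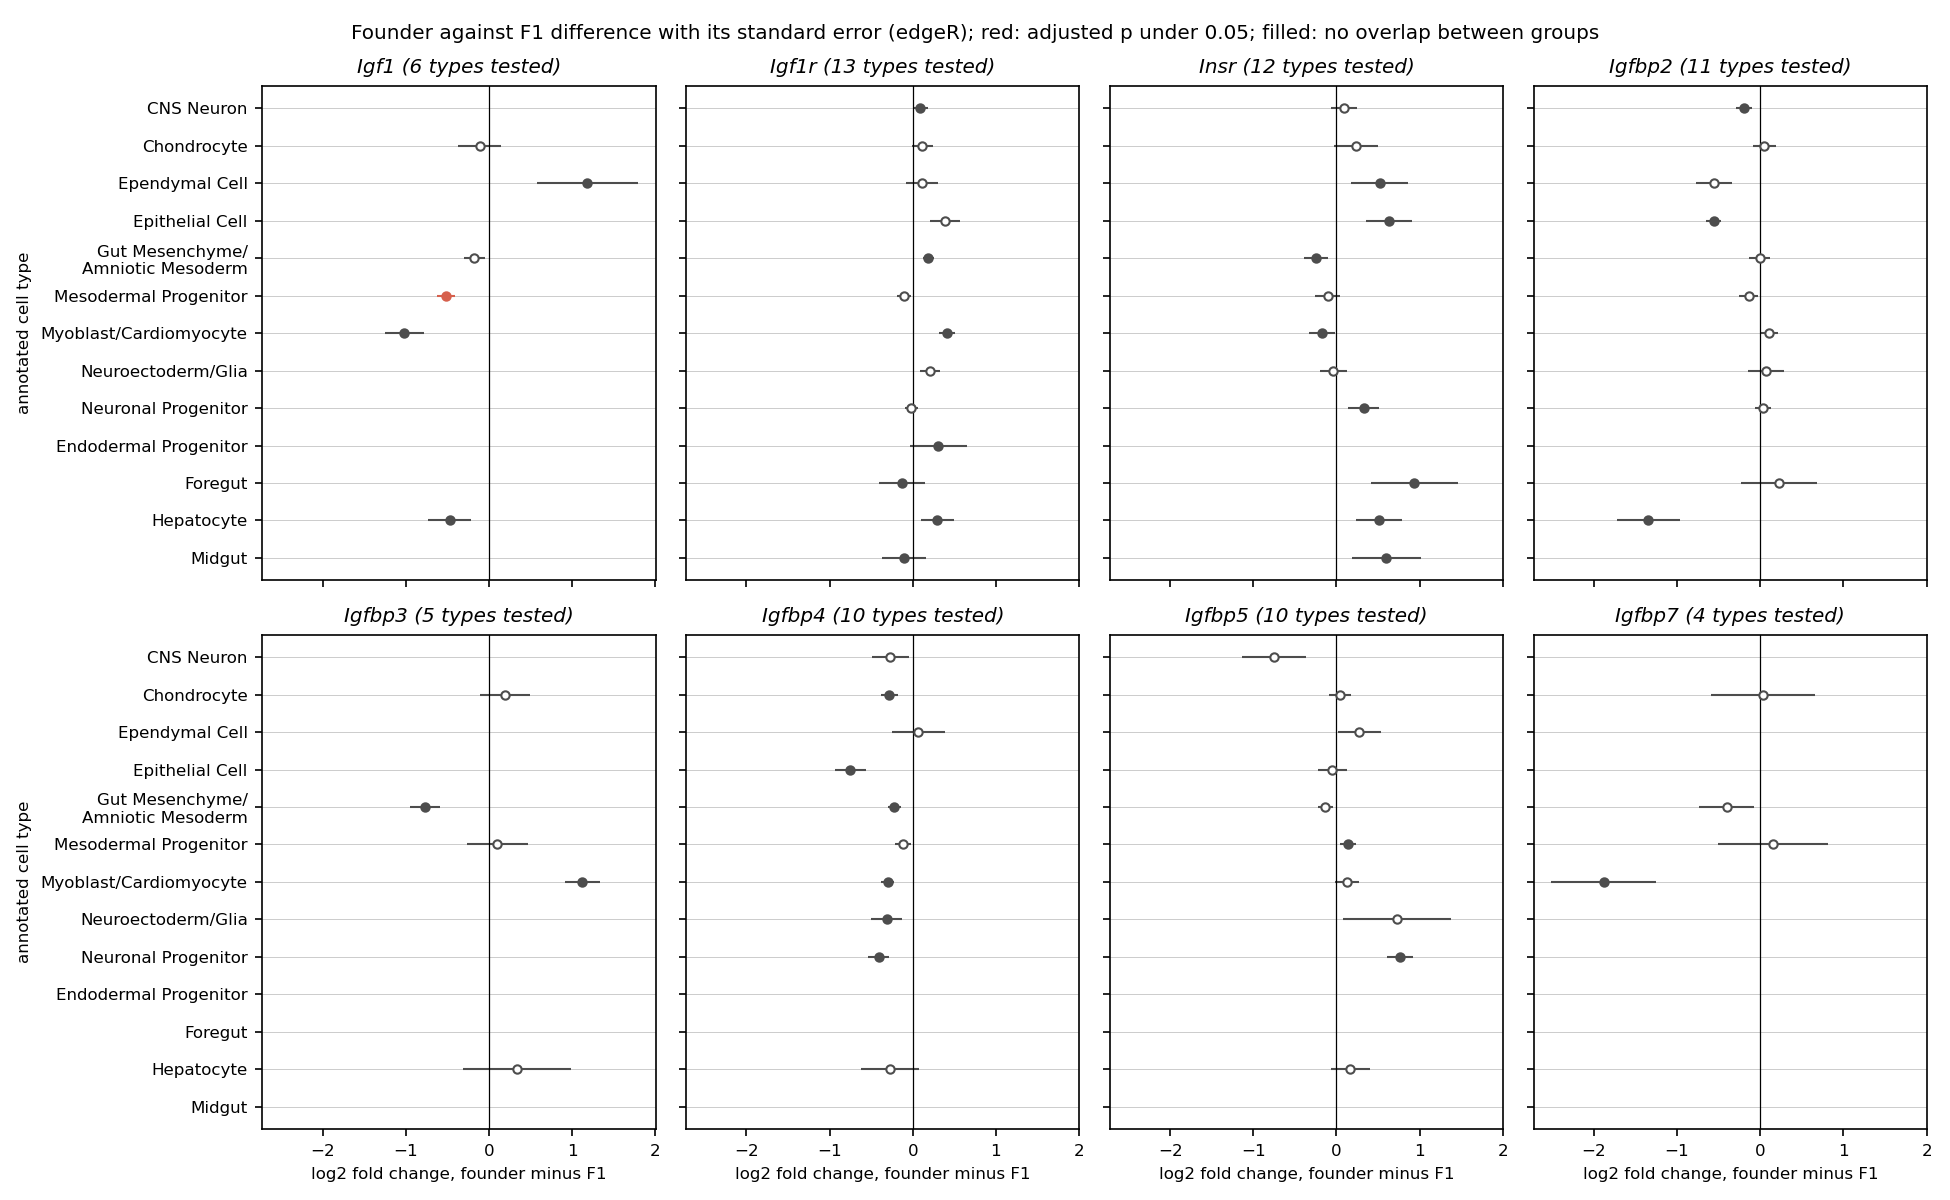
Log2 fold change, founder minus F1, with its standard error from edgeR for the 8 tested genes in the types where each passed the filter on low counts, with filled points where the groups did not overlap and red where the adjusted p was under 0.05. The 1 red point is Igf1 in Mesodermal Progenitor (-0.52), and Igfbp4 points lie left of 0 in 9 of 10 types.

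Whether the founder difference of a gene varied between types was tested by an interaction term over the 9 fitted deep types, with a term for each suspension and type. In this edgeR fit, none of the 8 tested genes passed at an adjusted p under 0.05, and 3 had an unadjusted p under 0.05, against 9.83% of all genes, while 71 of 13017 genes were called (0.545%). The smallest adjusted p-values were 0.139 for Igf1 and 0.1896 for Igfbp3, so the differences of Igfbp3 were not shown to vary between types. The number called among these genes was 0 as well with other size factors and without any 1 suspension.

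Among 36 other genes of the pathway, 30 were tested in 266 pairs and 1 pair was called. This was Igfbpl1, a gene related to the binding proteins, in Foregut (1.42, 2.95, 0.249 and 0.626), higher in founders by 2.33 (SE 0.64, edgeR adjusted p = 0.0374), in a shallow type in which 1.39% of 2085 genes were called in this direction. The pair entered the test only through the founders, where it was high, so the call is a description and no test of a difference. In Midgut, also shallow, Igfbpl1 was at 2.105, 2.88, 3.32 and 4.52, lower in founders by 0.56 (SE 0.32, edgeR adjusted p = 0.58). No pair was called among the other ligands (1 of 3 genes tested), the clearance receptor Igf2r, the proteases and their inhibitors (5 of 6 tested), the receptor adaptors (6 of 7), the RNA-binding proteins of the Igf2bp family (3 of 3) or the kinases, phosphatase and transcription factors downstream of the receptors (13 of 13). At an unadjusted p under 0.05 the 30 tested genes gave 33 of 266 pairs, or 12.4% against 10.2% of all pairs, with 17 higher and 16 lower in founders.

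The genes most like each member were ranked by Pearson correlation of log2(level + 0.1) over the 12 deep types, among 10311 genes with 500 or more UMIs there, as a description in which all points come from 1 library. Igf1 was most like Adgra2, Emilin1 and Tgfbi (r = 0.990, 0.979 and 0.977), and Igfbp4 was most like Igf2r (0.969), itself a gene of the pathway, then Actn1 and Flna. Igfbp2 was nearest to Ptprf (0.966), Igfbp5 to Etl4 (0.977), Igfbp3 to Tpm2 (0.942), Igf1r to Zfp445 (0.993), Insr to Ccdc50 (0.984) and Igfbp7 to Klf2 (0.988), whose highest level was likewise in Hematoendothelial Progenitor/Endothelium. The closest pair among the 9 genes was Igf1 and Igfbp3 (0.936), followed by Igfbp3 and Igfbp4 (0.915), while Igfbp2 and Igfbp5 reached 0.736 and Igf1 and Igf1r 0.286. For Igfbp6 the nearest gene (C1qtnf6, 0.877) rests on 25 Igfbp6 UMIs.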

How the data were processed

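The authors labelled the suspensions with CellPlex oligos, sequenced 1 pooled droplet library with 3′ chemistry and deposited, for each suspension, UMI counts from Cell Ranger, whose release is 7.2.0 in the headers of the matrices and an earlier one in the methods text, against GRCm38 with EGFP added. The counts carry no correction for ambient RNA. The cell table gave suspension, oligo and cell type, clustered by the authors after doublets had been removed with DoubletFinder, and 19 other columns were not used. No doublet caller was run.

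Counts were summed per suspension and type. Types for which each suspension held 20 or more cells were tested with edgeR 4.0.16 (TMM, filterByExpr, quasi-likelihood, adjusted p under 0.05, EGFP and oligos left out) in R 4.3.3, with DESeq2 1.42.0 as an alternative, after tests on simulated data. Levels, intervals (exact binomial and Poisson, 95%, counting error only) and plots used Python 3.11.15, numpy 2.4.6, pandas 2.3.3, scipy 1.17.1 and matplotlib 3.10.9. The limit for a count of 0 is 3 counts.

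All 9 members were named. Other genes of the pathway were named with values at an adjusted p under 0.05 in any type (12 at most), and the 3 genes most like a member were ranked, some of which are given. Members and lists were chosen with earlier results of these data known. The interaction fit and the splits of a pair of types by markers were chosen after seeing the data. Positions and start sequences came from RefSeq tables of GRCm38.p6, and proteins were not used here.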

Additional observations from a re-analysis of the deposited data

Results flagged for a closer look

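A signal of the 9 genes was present in barcodes that no comparison used. The 328 barcodes assigned to a suspension but without a cell type in the table of the authors held 2051 UMIs of the 9 genes, or 11.6 per 10000 gene UMIs (exact Poisson 95% interval 11.1 to 12.1), against 11.3 in the cells used. Igf1r was at 4.48, Igfbp2 at 2.72, Igfbp5 at 1.79 and Igf1 at 0.577, and Igfbp6 gave 0 of 1767171 gene UMIs. These barcodes have no annotated type, and their makeup was not tested. Groups of 2 suspensions are too small for a search for outlying samples.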

How the results depend on the processing

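The number of pairs called among the 9 genes was 1 of 71, beside 757 of 99228 over all genes. It stayed at 1 of 71 with other size factors (758 pairs called over all genes), 1 of 58 with cells under 5% mitochondrial genes (647) and 1 of 55 with types of 50 or more cells (679). It became 10 of 109 with no filter beyond 1 count (3167), 3 of 71 with DESeq2 (433) and 2 of 71 with adjustment over all pairs (655). The totals of pairs behind 647, 679 and 3167 are not given here, so no share stands beside these counts. Leaving out 1 suspension gave 1 to 6 called pairs (1 without F0_8, which was Igfbp2 in Epithelial Cell, 6 without F0_9, 5 without F1_1 and 5 without F1_mix, beside 554, 1606, 1283 and 1441 over all genes), with the lone suspension of a group assumed to vary like the others, and the cause was not tested. Igf1 in Mesodermal Progenitor kept its sign in all 10 alternatives and its call in 6, and Igfbp2 in Epithelial Cell was called in 7 of 9. The alternatives of types with 50 or more cells and of adjustment over all pairs reuse the main fit. Signs could not change in either of them, nor could a call within a type change in the former. The interaction gave 0 called members in all of its 5 alternatives. The level of each gene in its highest deep type moved by less than the spread over suspensions in all 7 alternatives for the levels. Leaving out 1 suspension cannot move the mean by more than that spread, so the alternatives of that kind could not fail this check. The highest type itself was the same for 7 to 9 of the 9 genes, the exceptions being Igf1 (Chondrocyte when pooled over suspensions and without F0_9 or F1_1), Igfbp3 (Chondrocyte when pooled, Gut Mesenchyme/Amniotic Mesoderm without F0_8 or F0_9) and Igfbp6 (Chondrocyte without F1_mix). Shares depend on depth by construction: at 2000 gene UMIs and unthinned they were Igf1 17.2% and 38.7%, Igf1r 53.2% and 97.3%, Igfbp5 64.2% and 90.1%, Igfbp2 77.5% and 97.4%, Igfbp4 61.5% and 96.6%, Insr 15.3% and 48.7% and Igfbp3 6.68% and 22.5% in their highest deep types, against 26.5%, 80.2%, 78.7%, 88.7%, 85.4%, 24.5% and 12.2% at 5000. The Igfbp7 level of Hematoendothelial Progenitor/Endothelium, pooled over suspensions, was 0.915 in all cells, 1.89 in those with endothelial markers and 0.603 without the cell with neither marker set. No paired analysis was possible because founder and F1 suspensions share no litter, animal or day in the labels. With 2 suspensions per group, differences near the spread between suspensions could not be told from it, and Igfbp6 was too low to test.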

Other observations

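Igfbp2 and Igfbp5 were counted in the same thinned cells (5000 gene UMIs each). In Epithelial Cell 109 of 150 cells held both, 24 Igfbp2 alone, 9 Igfbp5 alone and 8 neither. In Ependymal Cell 56 of 135 held both, and Igfbp5 was in 62.9% of the cells with Igfbp2 and 50% of those without. Neuronal Progenitor was split otherwise, with Igfbp2 alone in 336 of 589 cells and both in 118. CNS Neuron cells rarely held Igfbp5, with Igfbp2 alone in 320 of 515 and both in 27, whereas Gut Mesenchyme/Amniotic Mesoderm held Igfbp2 alone in 130 of 668, Igfbp5 alone in 159 and both in 151. These are counts of cells from 4 suspensions with no test.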
